A study of Homo sapiens with 4 samples.

Results

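The genes described here are 9 transcription factors that maintain epithelial and intestinal identity: OVOL2, ELF3, KLF4, KLF5, HNF4A, CDX1, CDX2, FOXA2 and GATA6. They were taken by name, and every probe set that the HG-U95Av2 annotation pairs with one of them was used. This gave 10 probe sets for 8 of the 9 genes, out of 8225 genes that the annotation names unambiguously; HNF4A was not analysed here. The cells were LS180, an established human colon carcinoma line. In the RBM35A+ cells a Tet-off construct drove RBM35A (now ESRP1, a splicing regulator of epithelial cells) after at least 6 days without doxycycline, and the RBM35A- cells were parental cells kept in doxycycline. Each state was measured in total RNA and in polysomal RNA, the RNA that sediments with several ribosomes in a sucrose gradient, with 1 Affymetrix array for each of the 4 combinations. Doxycycline and RBM35A therefore cannot be told apart, nor can RNA fraction and extraction method. The labels do not say whether the parental cells carried the construct. Any other difference between the parental cells and the cells with the construct also cannot be told apart from RBM35A. No probe set (0) is annotated to RBM35A or ESRP1, and its level was therefore not checked.

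Epithelial cells of the gut hold their identity through a network of such factors. Caudal homeobox proteins (CDX1, CDX2) set the intestinal programme, forkhead, GATA and HNF4 proteins open and drive gut and liver genes, Kruppel-like factors balance division against differentiation, and OVOL2 and ELF3 guard the epithelial state, OVOL2 as a repressor of mesenchymal factors such as ZEB1. Many of these proteins bind the control regions of their own genes and of one another.

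To show the sequences that such factors read, the RefSeq promoter windows (GRCh38.p14, 250 bases before to 50 after a transcription start, 5′ to 3′ on the gene's strand) are given for the genes that had signal above the floor defined below and an entry in the RefSeq promoter table. Of the 9 members 6 had an entry. Capitals mark the caudal motif TTTAT and the KLF and SP motif CCNCNCCC, each on either strand.
CDX2 (chr13:27969266-27969565, minus strand): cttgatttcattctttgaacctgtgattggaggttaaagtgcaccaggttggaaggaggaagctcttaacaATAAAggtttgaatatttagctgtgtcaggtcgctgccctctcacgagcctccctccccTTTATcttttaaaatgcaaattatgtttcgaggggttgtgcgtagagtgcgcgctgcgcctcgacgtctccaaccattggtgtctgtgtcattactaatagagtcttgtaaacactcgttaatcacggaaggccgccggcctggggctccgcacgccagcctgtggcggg
KLF4 (chr9:107489720-107490019, minus strand): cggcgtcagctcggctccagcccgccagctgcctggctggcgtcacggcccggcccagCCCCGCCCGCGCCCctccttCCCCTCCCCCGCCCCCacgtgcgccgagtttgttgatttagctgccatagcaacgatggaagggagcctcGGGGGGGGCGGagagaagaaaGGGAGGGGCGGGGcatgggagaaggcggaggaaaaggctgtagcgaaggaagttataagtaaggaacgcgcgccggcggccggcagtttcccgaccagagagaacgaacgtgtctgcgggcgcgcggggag
KLF5 (chr13:73054726-73055025, plus strand): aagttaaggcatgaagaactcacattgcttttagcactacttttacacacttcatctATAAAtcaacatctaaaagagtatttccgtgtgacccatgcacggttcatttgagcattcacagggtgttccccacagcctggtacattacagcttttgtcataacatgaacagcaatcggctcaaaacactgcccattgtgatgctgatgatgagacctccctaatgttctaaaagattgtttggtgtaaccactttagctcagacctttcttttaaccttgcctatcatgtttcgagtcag
KLF5 (chr13:73058755-73059054, plus strand): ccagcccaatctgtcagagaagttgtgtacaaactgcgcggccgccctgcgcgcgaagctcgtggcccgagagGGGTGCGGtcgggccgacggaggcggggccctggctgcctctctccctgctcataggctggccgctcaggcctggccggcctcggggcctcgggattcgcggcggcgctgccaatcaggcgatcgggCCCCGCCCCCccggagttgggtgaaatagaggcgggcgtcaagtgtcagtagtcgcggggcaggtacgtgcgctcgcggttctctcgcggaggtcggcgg

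The CDX2 window held 2 caudal motifs, with their first printed base at positions -179 and -120 from the start, and 0 KLF and SP motifs. It also held 1 GATA motif (GATAA, sharing 4 bases with the second caudal motif), 1 forkhead motif (TGTTTNC) and 1 ETS motif (CGGAAG), all searched on both strands. The KLF4 window, at 69% G and C, held 10 KLF and SP motifs, many of them overlapping, and 0 caudal motifs. KLF5 has 2 listed starts: the upstream window (40.7% G and C) held 1 caudal motif and 0 KLF and SP motifs, and the downstream window (71.3%) held 3 KLF and SP motifs and 0 caudal motifs. None of the 4 windows held the OVO motif CCGTTA (0 matches). Among all 35116 promoter windows of the table, 34.9% held the caudal motif, 56.2% the KLF and SP motif, 22.7% the GATA motif, 18.0% the forkhead motif, 19.5% the ETS motif and 3.07% the OVO motif. These matches describe the letters of the windows. No binding was measured.

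All levels are log2 values that the authors made with GCRMA, and each result has 1 array per group, so none has a replicate check or a p-value. A level under 5 was treated as under the floor of measurement; 33.8% of 12626 probe sets reached 5 on each total RNA array and 34.2% on each polysomal array. The arrays had been brought to 1 distribution within each fraction but not between fractions. Levels of different probe sets are not compared, since probes differ in how strongly they bind. As a scale for error, probe sets of the same gene disagreed in their difference between RBM35A states with an SD of 0.21 in total RNA (438 genes) and 0.19 in polysomal RNA (407 genes), which covers the probes and not the spread between cultures. On the polysomal arrays the controls at the 5′ ends of beta-actin and GAPDH also differed between RBM35A+ and RBM35A- cells, with -0.86 and -0.79, against -0.02 and -0.13 at the 3′ ends. The matching 5′ values in total RNA were -0.05 and -0.03. Whether this 5′ difference has a part in the polysomal results below was not tested.

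The arrays showed epithelial transcripts and few of those that mark other cell types. Of 19 epithelial adhesion genes on the array 16 reached the floor on at least 1 array. KRT8 lay between 13.21 and 13.86 and EPCAM between 10.28 and 10.62. The exceptions were TJP1 at 2.59 to 2.87, CTNND1 at 2.35 to 2.46 and KRT20 at 2.33 to 2.44. Of 15 mesenchymal genes 13 stayed under the floor on all 4 arrays, VIM and SPARC at the lowest value of each array, 2.22, and the exceptions were CDH11, at 5.87 to 6.71, and COL1A1, at 4.38 to 5.58. The 6 endothelial markers all stayed under it, and of 10 haematopoietic markers HBB alone reached it, at 5.13 to 5.92. The summed linear signal of the mesenchymal list ranged from 266 to 272 in total and from 249 to 254 in polysomal RNA.

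OVOL2, the zinc-finger repressor of mesenchymal genes, had the largest difference with RBM35A in each fraction among the members with a measured one. Its only probe set read 6.22 in total RNA of RBM35A- cells and 6.74 in RBM35A+ cells. In polysomal RNA it read 6.43 and 7.27. The RBM35A+ array was thus the higher one in both fractions, and the highest of the 4 readings came from polysomal RNA of RBM35A+ cells. The difference was 0.52 in total RNA (1.44-fold) and 0.83 in polysomal RNA (1.78-fold). Both exceeded the SD of 1 probe set. In total RNA 78 of 3320 measured genes lay above OVOL2, and in polysomal RNA 3 of 3391 did. Its polysomal difference exceeded its total difference by 0.31, against an SD of 0.24 for 1 probe set in this quantity, and 21.5% of 3123 genes lay at least as far from 0.

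The smaller difference of OVOL2, 0.52, was then used as a cut, which OVOL2 passes by construction. Among the 3123 genes measured in both fractions, 6 reached at least 0.52 in both, OVOL2 included. The other 5 were PKM (0.68 in total, 0.84 in polysomal RNA), CYP3A5 (1.73 and 0.56), NCOA2 (0.68 and 0.52), ATP10B (0.63 and 0.54) and LAMP1 (0.53 and 0.57). Only PKM, a glycolytic enzyme, was higher than OVOL2 in both fractions. OVOL2 was chosen with earlier results of these data known, so its ranks and this count are a description and support nothing.

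**Figure D1:**
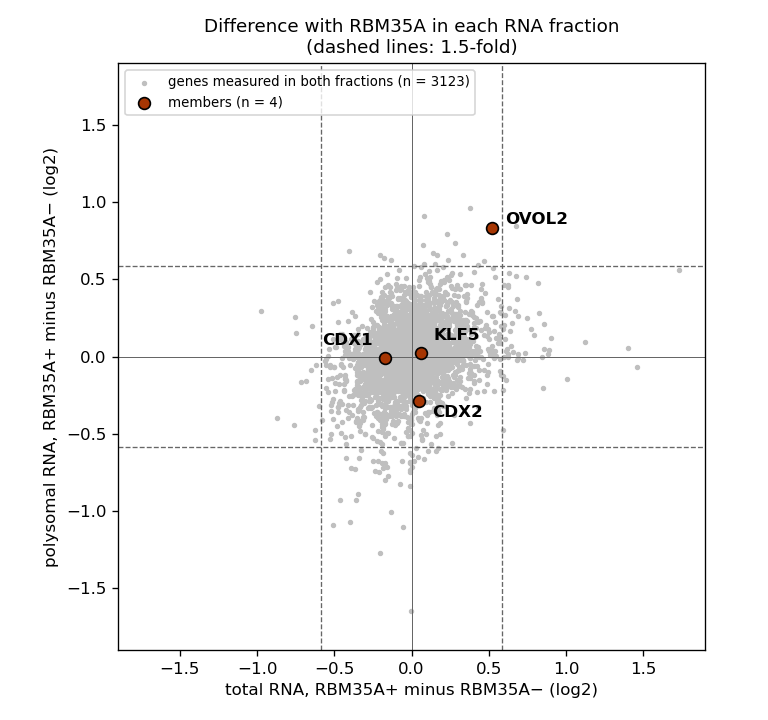
Difference between RBM35A+ and RBM35A- (log2) in total RNA (x axis) and in polysomal RNA (y axis) for the 3123 genes measured in both fractions (grey points) and the 4 members among them (orange points); dashed lines mark 1.5-fold. OVOL2 lies at 0.52 and 0.83, above the 1.5-fold line in polysomal RNA alone, while KLF5 lies near 0 on both axes, CDX1 is at -0.17 in total RNA and CDX2 at -0.29 in polysomal RNA.

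OVOL2 was also the only member past 1.5-fold in either fraction. In total RNA, 0 of 5 members with a measured difference were 1.5-fold higher and 0 lower, where 1.54% of all measured genes were higher and 0.663% lower. In polysomal RNA, 1 of 5 was higher and 0 lower, against 0.767% and 1.30% of all genes. The members were chosen with earlier results of these data known, so this count is a description and supports nothing. The median of the members was 0.06 in total and 0.01 in polysomal RNA, beside 0.00 and 0.02 over all genes. The other members with a measured difference lay between -0.29 and 0.17.

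The other guardian of the epithelial state, ELF3, an ETS factor, did not reach the floor. The 2 RBM35A states read 4.31 (RBM35A-) and 3.97 (RBM35A+) in total RNA, and 3.49 and 3.60 in polysomal RNA. No difference is given for it. Its relative ELF5 and the OVOL2 relative OVOL1 were likewise under the floor, OVOL1 at 4.06 to 4.22.

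The mesenchymal factors that oppose this state gave almost no signal in either RBM35A state. Of 9 on the array, 8 were under the floor on all 4 arrays. ZEB1, which OVOL2 represses in other epithelia, read 2.25 on both total RNA arrays and 2.30 on both polysomal arrays. ZEB2, SNAI2 and TWIST1 lay between 2.22 and 2.28. A decrease of these transcripts with OVOL2 could not have been seen from such levels. The exception was TCF3, a broadly expressed E protein, at 8.32 and 8.44 in total RNA (0.12) and 8.21 and 8.26 in polysomal RNA (0.05). Of its other 2 measured probe sets, the first in the annotation gave -0.10 in total and 0.10 in polysomal RNA, and the remaining one is not given here. All these differences were smaller than the SD of 1 probe set, so the direction of TCF3 is not settled.

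**Figure D2:**
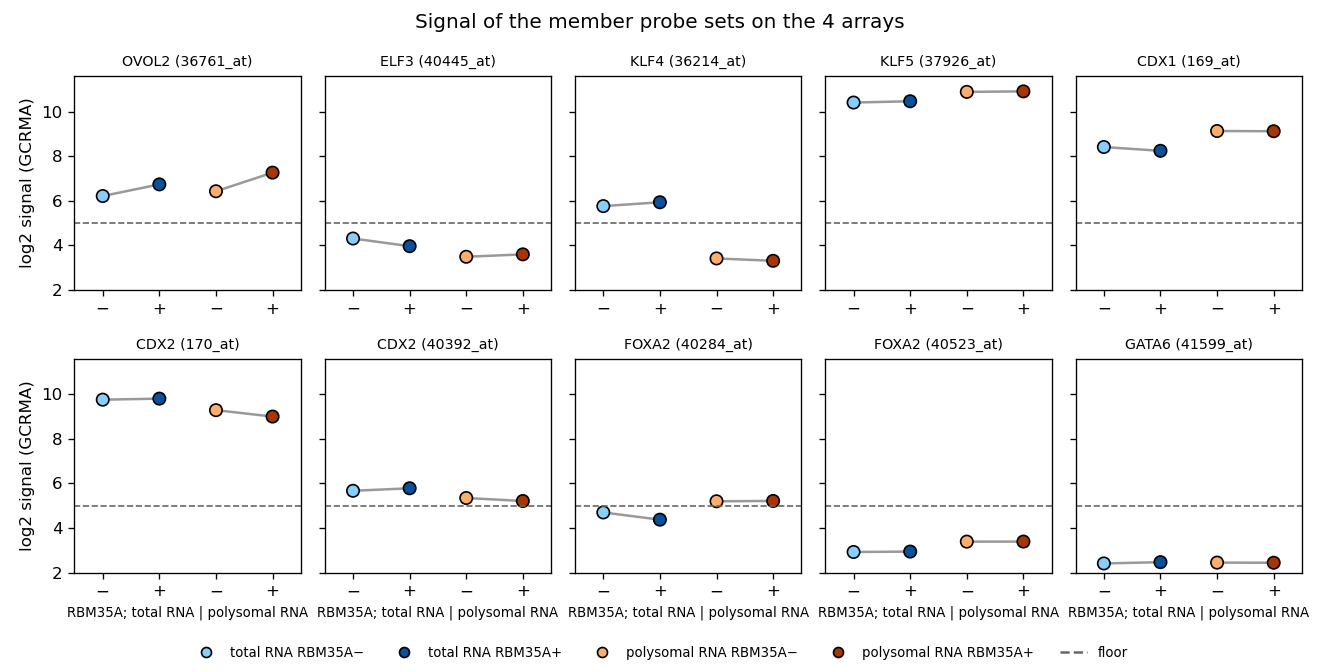
Log2 signal (y axis) of the 10 probe sets of the members on the 4 arrays (x axis, RBM35A- and RBM35A+ in total RNA, then in polysomal RNA); each point is 1 array, lines join the arrays of a fraction, and the dashed line is the floor of 5. OVOL2 is higher in RBM35A+ than in RBM35A- in both fractions, KLF4 lies above the floor in total RNA only, the stronger FOXA2 probe set in polysomal RNA only, and ELF3 and GATA6 lie below it throughout.

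The Kruppel-like factors KLF5 and KLF4 share a DNA-binding zinc-finger domain and, in the intestine, KLF5 is known from the dividing crypt and KLF4 from the differentiated surface. In total RNA KLF5 read 10.41 without and 10.47 with RBM35A, and in polysomal RNA 10.89 and 10.91. Its differences of 0.06 and 0.02 were well inside the SD of 1 probe set. KLF4 read 5.77 and 5.94 in total RNA, a difference of 0.17 that is also smaller than that SD. In polysomal RNA it read 3.42 and 3.31, under the floor on both arrays, so its polysomal difference is unknown. KLF4 was the member whose signal was seen in total RNA and not in polysomal RNA. With the floor, its polysomal minus total difference was -0.77 or lower in RBM35A- cells and -0.94 or lower in RBM35A+ cells. Another member of the family from the list of related factors, KLF6, went the opposite way between fractions, at 7.14 and 7.04 in total RNA and 9.78 and 9.90 in polysomal RNA, a mean difference of 2.75.

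The caudal factors CDX1 and CDX2 are close relatives with a shared homeodomain. In total RNA CDX1 read 8.42 without and 8.25 with RBM35A, and in polysomal RNA 9.13 and 9.12. It was therefore -0.17 with RBM35A in total RNA and -0.01 in polysomal RNA, both within the SD of 1 probe set. CDX2 has 2 probe sets, and the annotation lists the same source sequence for both. The stronger one read 9.76 and 9.80 in total RNA and 9.29 and 9.00 in polysomal RNA. The weaker one read 5.67 and 5.78 in total RNA and 5.35 and 5.21 in polysomal RNA. Both put the RBM35A+ array slightly above in total RNA (0.05 and 0.11) and below in polysomal RNA (-0.29 and -0.13). Both total RNA values were smaller than the SD of 1 probe set. The polysomal value of -0.29 exceeded the SD of 1 probe set and that of -0.13 did not, and 17.4% of 3391 genes were at least as far from 0 as the larger one.

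The polysomal difference of CDX2 minus its total difference was -0.33 at the stronger probe set and -0.25 at the weaker, and for CDX1 this quantity was 0.16. For KLF5 it was -0.03. The SD of 1 probe set in this quantity was 0.24, and 18.9% of 3123 genes lay at least as far from 0 as the stronger CDX2 probe set. None of the 4 members measured in both fractions (0 higher, 0 lower) reached a size of 1, which 0.0961% of 3123 genes exceeded upward and 0.320% downward.

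Between the fractions, the caudal pair lay on opposite sides of 0. CDX1 was higher in polysomal than in total RNA, by 0.72 in RBM35A- and 0.88 in RBM35A+ cells. CDX2 was lower in polysomal RNA, with -0.47 and -0.80 at the stronger probe set and -0.32 and -0.57 at the weaker. Both probe sets of CDX2, which have the same listed source sequence, thus lay below 0 in both RBM35A states, and CDX1 lay above 0. OVOL2 (0.21 and 0.53) and KLF5 (0.48 and 0.44) lay on the same side as CDX1. No member reached 2-fold as the mean of both states with the floor (0 higher and 0 lower of 6; without the floor KLF4 was lower, at -2.49), a size that 13.7% of 3588 genes exceeded upward and 7.64% downward. The SD of 1 probe set for this mean was 0.75 over 358 genes, a size that KLF4 exceeded with at least 0.85 downward. CDX2 did not reach that SD, with means of -0.64 at the stronger probe set and -0.45 at the weaker. Of 3588 genes, 39.9% lay at least as far from 0 as its stronger probe set. CDX1 exceeded the SD at 0.80, but its value was 0.69 with the 4 arrays normalized together and 0.64 with the level trend removed (the running median difference of genes at a like level subtracted), both under that SD. Levels across fractions rest on arrays normalized apart, and the 5′ controls were lower in polysomal RNA (-4.91 for beta-actin, -2.21 for GAPDH). Where the probe sets of the members lie along their transcripts was not used here, so the part of 5′ signal in these differences was not tested.

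**Figure D3:**
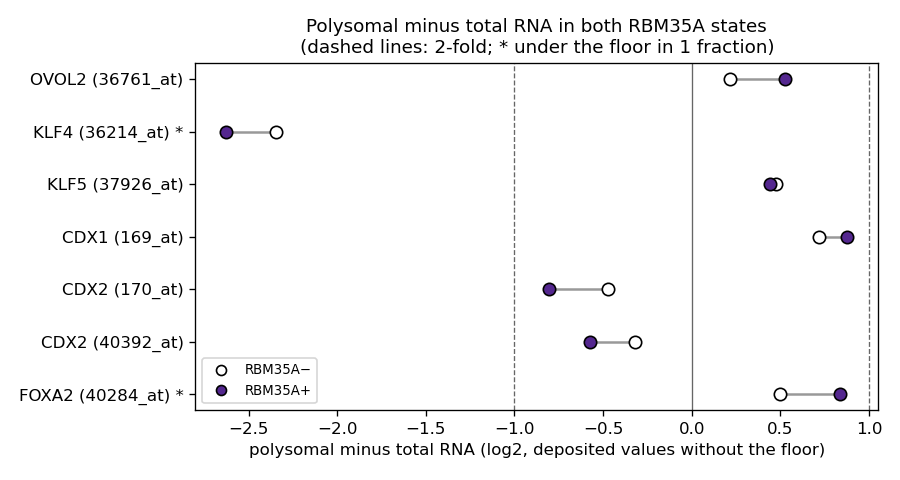
Polysomal minus total RNA (x axis, log2, deposited values without the floor) in RBM35A- (open points) and RBM35A+ cells (filled points) for the 7 member probe sets at or above the floor on at least 1 array; dashed lines mark 2-fold and asterisks mark probe sets under the floor in 1 fraction. CDX1 lies to the right of 0 at 0.72 and 0.88 and both CDX2 probe sets to the left, and KLF4 at -2.35 and -2.63 rests on polysomal values under the floor.

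FOXA2, a forkhead factor that opens chromatin at gut and liver genes, stood at the edge of detection. Its stronger probe set was under the floor in total RNA, with 4.70 without and 4.38 with RBM35A, and read 5.20 and 5.22 in polysomal RNA. The polysomal difference was 0.01. Its other probe set was under the floor on all arrays, at 2.93 and 2.95 in total and 3.39 in both polysomal samples. Its relative FOXA1 was measured on all arrays, at 7.01 and 6.79 in total RNA (-0.22) and 5.79 and 5.81 in polysomal RNA (0.02). GATA6, a zinc-finger factor of the gut endoderm, read 2.41 to 2.47 and so gave no measurable signal, as did GATA4, at 2.22 on all arrays.

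The 4 members measured on every array were compared with the other 3003 genes at or above 5 on all arrays, by the Euclidean distance between the 4 log2 values after each gene's own mean was subtracted. Nearest to OVOL2 were ZMYM3 (distance 0.24, differences of 0.54 and 0.51), PIK3R3 (0.30) and NAAA (0.33). Nearest to KLF5 were ARPC1B, SEPTIN9 and TGOLN2, at distances of 0.022 to 0.025. CDX1 lay nearest to CDC16, LSM2 and SLC29A1 (0.014 to 0.032), and CDX2 to HADH, FAM89B and ACOT7 (0.043 to 0.068). OVOL2 was thus farther from its nearest gene than the other 3 members were from theirs. These distances describe 4 arrays and carry no test.

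Other transcription factors of gut and epithelium showed mostly small differences. Of 40 listed, 23 were on the array and 12 were measured. In total RNA 1 of 12 was 1.5-fold lower and 0 higher, with a median of -0.01, beside 0.663% and 1.54% of all genes. The lower one was ASCL2, a Wnt-driven factor of crypt stem cells, at 7.36 in RBM35A- and 6.72 in RBM35A+ cells (-0.64). In polysomal RNA ASCL2 was under the floor, at 4.38 and 3.81. VDR, the vitamin D receptor, followed at -0.33 in total RNA, although its other measured probe set gave -0.09. CEBPA, which restrains division in differentiating cells, was highest at 0.31, and PPARG, a lipid-sensing nuclear receptor, was next at 0.08. MYB, named after its values were seen, gave 0.07 in total RNA. Of its 3 other measured probe sets, the first in the annotation gave -0.64 there, and the rest are not given here. The direction of MYB is therefore not settled. In polysomal RNA 0 of 11 were 1.5-fold higher or lower, beside 0.767% and 1.3% of all genes, and the median was 0.00. TFAP2A, a factor of surface ectoderm, was lowest at -0.55 (9.50 to 8.95), followed by SOX9, a crypt factor, at -0.12. TCF7L2, the Wnt-pathway factor that works with beta-catenin, was highest at 0.38 (7.28 to 7.66), followed by KLF6 at 0.12.

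The epithelial adhesion genes, many of them repressed by mesenchymal factors, did not move as a body. In total RNA 10 of 16 were above 0 and 6 below, with a median of 0.10. In polysomal RNA 5 were above and 11 below, with a median of -0.07. Over all genes 1669 of 3320 were above 0 in total RNA and 1913 of 3391 in polysomal RNA. Without probe sets of shared sequence the median of the adhesion genes in total RNA was 0.01. None of the adhesion genes passed 1.5-fold in either fraction (0 higher, 0 lower in each). Over all genes 1.54% were higher and 0.663% lower in total RNA, and 0.767% and 1.3% in polysomal RNA. JUP, the junction protein plakoglobin, was highest in total RNA at 0.42 but at -0.23 in polysomal RNA, and DSP, desmoplakin, was at 0.40 and 0.17. CLDN3, a tight junction claudin, was lowest in total RNA at -0.44, followed by the keratin KRT18 at -0.34. In polysomal RNA KRT19 (-0.51) and DSG2, a desmosomal cadherin (-0.50), were lowest, and LAD1 (0.24) and DSP were highest. CDH1, which encodes E-cadherin and was named after its values were seen, gave 0.39 in total RNA at its stronger probe set and -0.94 at its other one, so its direction is not settled.

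Genes typical of gut and liver epithelium, many of them known targets of HNF4A, CDX2 or GATA factors, were measured for 16 of 41 on the array, the rest lying under the floor, among them SI, APOB, ALB and FABP2. In total RNA 3 of the 16 were 1.5-fold higher and 0 lower, with a median of 0.05, beside the 1.54% and 0.663% of all genes. With a floor of 6 the number higher was 2, since FABP1 no longer passed. They were the drug-metabolizing enzyme CYP3A5 (5.41 to 7.14), whose probes may also bind related CYP3A transcripts, the goblet cell mucin MUC2 (6.54 to 8.00), and FABP1, a fatty acid carrier of enterocytes (5.48 to 6.12, a difference of 0.64). The list was chosen with earlier results of these data known, so its counts are a description and support nothing. PCK1 (-0.36) and CEACAM6 (-0.22) were lowest in total RNA. CDH17 and VIL1, an intestinal cadherin and the brush border protein villin, which CDX2 is known to activate and which were named after their values were seen, were at 0.23 and 0.12 in total RNA and at 0.08 and -0.05 in polysomal RNA. In polysomal RNA 0 of 15 were 1.5-fold higher and 1 lower, with a median of -0.05, beside 0.767% and 1.3% of all genes. The lower one was PCK1, a gluconeogenic enzyme (6.19 to 5.27, -0.93). Its probe set is marked as shared with similar sequences, its other probe set was under the floor on both polysomal arrays, and the count was 0 without shared probe sets. CYP3A5 was highest there at 0.56, followed by the clotting factor F12 at 0.38, and CEACAM5, a surface glycoprotein of colon tumours, stood next to PCK1 at -0.56. FABP1 had 0.07 and MUC2 -0.07 in polysomal RNA.

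**Figure D4:**
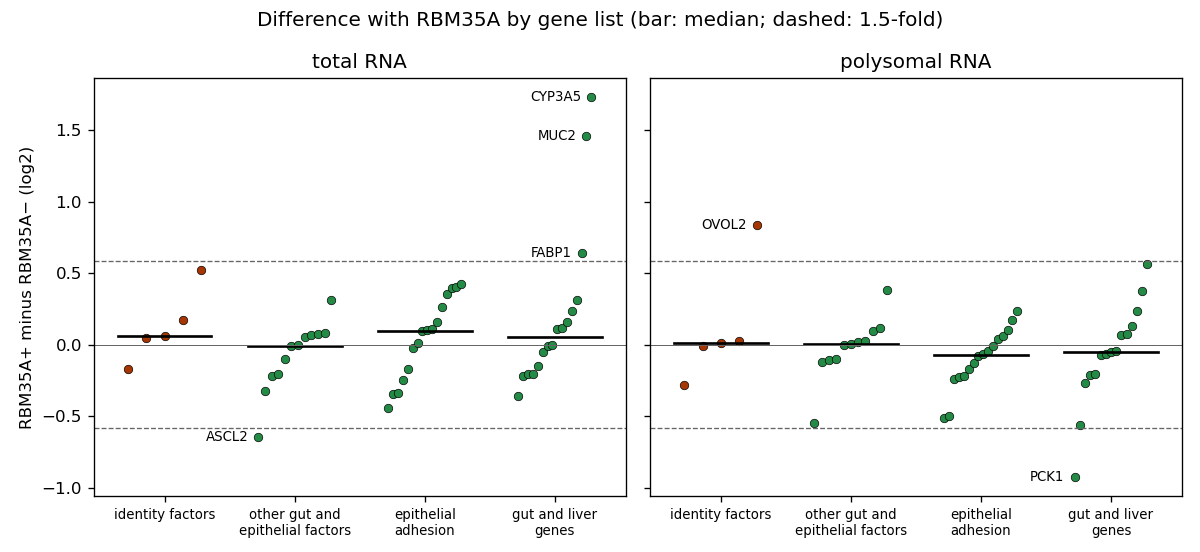
Difference between RBM35A+ and RBM35A- (y axis, log2) in total RNA (left) and polysomal RNA (right) for the measured genes of 4 lists (x axis): the identity factors (orange) and other gut and epithelial factors, epithelial adhesion genes and gut and liver genes (green). Points are genes, bars are medians, dashed lines mark 1.5-fold, and every gene past that line is named: ASCL2, CYP3A5, MUC2 and FABP1 in total RNA, OVOL2 and PCK1 in polysomal RNA.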

How the data were processed

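Total and polysomal RNA of LS180 cells in 2 RBM35A states was hybridized to 4 arrays (10 µg of RNA each, per the labels' protocols). The deposited values are log2 signals; the submitters' processing notes name GCRMA and no version. Sorted values differed by at most 4.29e-06 within the total RNA pair and 6.61e-06 within the polysomal pair, but by up to 0.227 between fractions, so the authors had equalized distributions within a fraction, which removes any shift shared by most genes.

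Probe sets with 1 gene symbol (10943, of which 10934 matched RefSeq names of GRCh38.p14 by gene ID) were kept; 546 had several. The probe set highest on average stood for its gene (8225 genes, 3588 of them at 5 or more on at least 1 array). Values under 5 were raised to 5, and a difference between 2 such values was left out. Counts used 1.5-fold, a size of 1 for differences of differences and 2-fold between fractions. The members and gene lists were chosen with earlier results of these data known. Named were all members, list genes past 1.5-fold, the 2 highest and 2 lowest of the larger lists and the 3 nearest genes of each member; relatives of members and markers named beyond this were chosen after their values were seen. Python 3.11.15, pandas 2.3.3 and numpy 2.4.6 were used, and the code was tested on simulated data. The number of arrays limits the precision. The 7 alternatives covered the floor, probe sets and normalization.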

Additional observations from a re-analysis of the deposited data

Results flagged for a closer look

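JUP had opposite differences in the fractions, 0.42 in total and -0.23 in polysomal RNA, both larger than the SD of 1 probe set. They rest on its only probe set, which is marked as shared with similar sequences. The polysomal difference of JUP minus its total difference, -0.65, was not tested, since each group had 1 array.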

How the results depend on the processing

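No paired analysis was possible because each group had 1 array. OVOL2 has 1 probe set and lay above 6 on all 4 arrays, so the floors and the probe set rules could not move it. It was 0.54 in total and 0.83 in polysomal RNA with the 4 arrays normalized together, and 0.52 and 0.82 with the level trend removed. CDX2 ranged from -0.29 to -0.21 in polysomal RNA. The number of members lower by 2-fold in polysomal than in total RNA was 0, but 1 with no floor, 1 with a floor of 4 and 1 with the level trend removed. KLF4 was that member, at -2.49, -1.85 and -1.07. The count of listed genes 1.5-fold lower in polysomal RNA, PCK1 alone, was 0 under a floor of 6, 0 for the mean of probe sets and 0 when probe sets of shared sequence were left out. The other results on the members moved by less than the SD of 1 probe set. Of all genes, 22 were 1.5-fold lower in total RNA, 43 with a floor of 4 and 12 with a floor of 6. The difference of differences reached 1 in 3 genes, or in 1 under a floor of 6 and 1 for the mean of probe sets, and -1 in 10, or in 6 under a floor of 6. Signal over background limits ELF3, GATA6, FOXA2 in total RNA and KLF4 in polysomal RNA, which were under the floor.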
